A study of Osmanthus fragrans with 6 samples.

Results

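Among the assembled petal transcripts of Osmanthus fragrans var. semperflorens, 170 reached a minimum level at full bloom, were at least 4-fold lower at late full bloom, and had a similar lower level at abscission. They were chosen by measured values of flowering round 1. Levels are given as CPM, a transcript's count scaled to a common library total. A member had late full 1 at most 0.25 times full 1, abscission 1 between 0.67 and 1.5 times late full 1, full 1 at 5 CPM or more, and was not among the 100 transcripts with the highest mean CPM over full 1, late full 1, abscission 1, initial 2 and full 2. Of 96596 transcripts in the table, 14463 passed the conditions on abundance, 443 of these were at or below 0.25 at late full bloom, and 170 (38.4% of the 443) also met the condition on abscission. The levels in full 1, late full 1 and abscission 1 are therefore given as a description, while initial 2 and full 2 entered the choice only through the list of the 100 most abundant transcripts, and initial 1 did not enter it.

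The plant is an untreated sweet osmanthus that flowers repeatedly, grown outdoors, with petals collected in September. The study followed flower colour and carotenoid genes over flowering by RNA sequencing of petal messenger RNA. Round 1 was sampled at the initial (initial 1), full bloom (full 1), late full bloom (late full 1) and abscission (abscission 1) stages, and round 2 at the initial (initial 2) and full bloom (full 2) stages. Each group is 1 library in which 5 replicates were pooled, so no spread between replicates was measured, no p-value is given, and intervals cover counting error only. The 5 deep libraries held 17826687 to 39119106 counts and initial 1 held 107466, so 1 count stood for 9.31 CPM in initial 1.

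As background, a petal opens, holds and is shed within a short life. Transcripts for cell expansion, scent and pigment are typically made in the opening flower, and transcripts for the breakdown and export of cell contents are typically made in the ageing petal. Messenger RNA levels follow the balance of synthesis and decay, so a level can hold steady at any height. The table pairs assembly IDs with no gene names, so the members are named by ID and no function is given to any of them. In whole petals, fewer cells of a type and less RNA per cell cannot be told apart.

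In late full 1 every member still had counts, from 1 to 2129, and the level was 0.721% to 24.99% of full 1 with a median of 18.1%. The median level over members was 12.8 CPM at full bloom, 2.10 at late full bloom and 2.08 at abscission. The condition on abscission all but removes transcripts at 0, so the presence of counts is given as a description. In late full 1 the level was below 0.05 of full 1 in 6 members, between 0.05 and 0.1 in 16, between 0.1 and 0.15 in 40, between 0.15 and 0.2 in 44 and between 0.2 and 0.25 in 64. Over all 23059 transcripts with at least 50 counts in the pair, 3.00% were at least 4-fold lower in late full 1 than in full 1, and the choice of members fixes that all 170 were.

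Whether a transcript meets the limits on the drop and on the hold at abscission depends on the scaling of the libraries. With CPM the median of abscission 1 over late full 1 was 0.969. With TMM factors, which scale libraries to a common set of transcripts, it was 1.24, and the members ranged from 0.860 to 1.92. The late full 1 level stayed at or below 28.9% of full 1 in all members with TMM factors. By that scaling 122 of the 170 members (71.8%) were still at least 4-fold lower in late full 1, against 2.19% of all transcripts. Applied to TMM-scaled CPM, the same rule chose 115 transcripts, of which 87 were among the 170. Among the 443 transcripts that dropped, 154 went below 0.67 of late full 1 at abscission and 119 rose above 1.5. The 170 are the middle range of this distribution, and 54.3% of all 14463 transcripts past the abundance conditions lay in the same range.

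The edges of the choice show how closely members and neighbours lie. Just inside the limit of 0.25, c158491_g2_i1 went from 54.4 to 13.6 CPM and c160751_g1_i1 from 8.03 to 2.01. Just outside it, c160005_g1_i2 went from 94.0 to 23.5 CPM and c150312_g1_i3 from 6.46 to 1.62. At abscission, the ratio to late full 1 was 0.671 in c133591_g1_i1 and 0.674 in c108112_g1_i1, both members. It was 0.662 in c150074_g1_i1 and 0.661 in c124292_g1_i1, which are not. At the upper limit, c150935_g1_i1 (1.499) and c160812_g1_i2 (1.496) were members, while c71648_g1_i1 (1.51) and c147567_g1_i1 (1.53) were not. The lowest full 1 levels among the members were 5.00 CPM in c106991_g1_i1 and 5.05 in c135415_g1_i1, against 4.90 in c158901_g6_i2 and 4.80 in c155035_g5_i2 just below the limit.

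**Figure D1:**
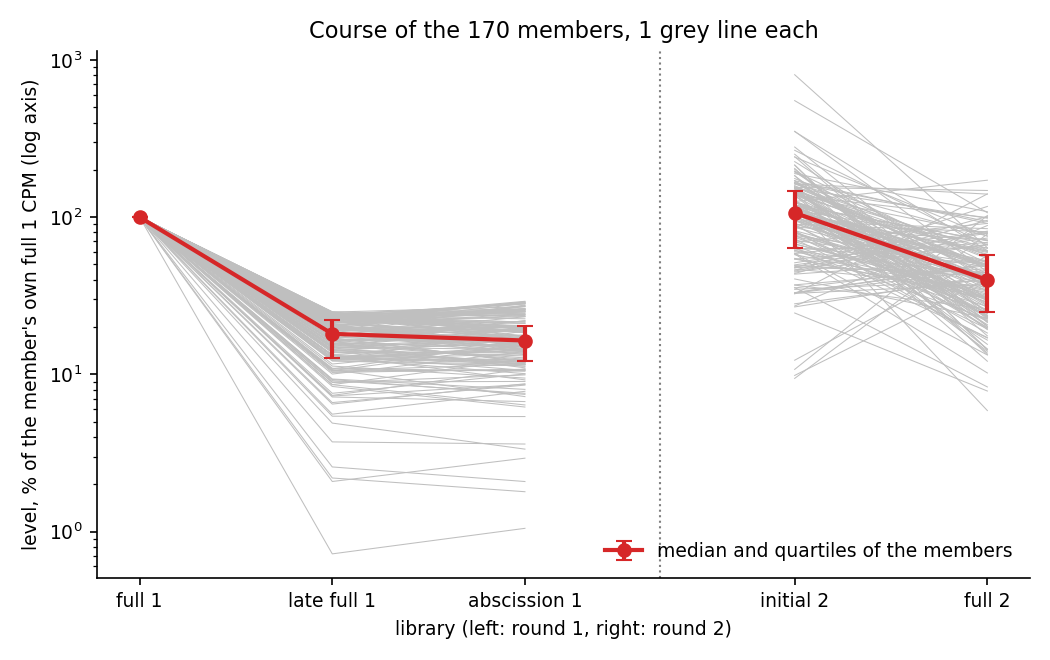
The level of each of the 170 members is plotted in the 5 deep libraries, as a percentage of its own level in full 1 on a log axis, with 1 grey line per member and the median and quartiles in red. The median was 18.1% in late full 1, 16.4% in abscission 1, 106% in initial 2 and 39.9% in full 2, and the rule bounds the lines in late full 1 and abscission 1.

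The most abundant members in full 1 followed different courses outside the drop. The highest, c146898_g1_i1, stood at 382 CPM in initial 1, 395 in full 1, 82.1 in late full 1, 74.2 in abscission 1, 196 in initial 2 and 291 in full 2. Its level was low in late full 1 and abscission 1 alone, and round 2 full bloom was 1.48-fold above round 2 initial bloom (95% interval 1.43 to 1.53). The next, c131241_g1_i1, stood at 530 CPM in initial 1, 263 in full 1, 24.3 in late full 1, 19.6 in abscission 1, 380 in initial 2 and 60.4 in full 2. It was high at the initial stage of both rounds and lower at full bloom in both, 2.02-fold in round 1 (95% interval 1.53 to 2.62, and 1.41-fold with TMM factors, 1.07 to 1.83) and 6.29-fold in round 2 (95% interval 5.93 to 6.69).

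Other abundant members shared the drop of round 1 and differed in round 2. Transcript c130045_g1_i1 stood at 326, 211, 24.5 and 32.0 CPM over the 4 stages of round 1, then at 252 in initial 2 and 149 in full 2. Transcript c131394_g1_i1 stood at 102, 195, 43.8 and 41.0 CPM over round 1, then at 92.5 in initial 2 and 228 in full 2. The former was lower and the latter higher at full bloom of round 2. Transcript c160111_g1_i1 stood at 288, 169, 8.30 and 5.67 CPM over round 1, then at 60.4 in initial 2 and 14.1 in full 2. Its full 2 level was 8.31% of full 1, with a 95% interval of 1.41 to 2.04 for its ratio to late full 1. Transcript c145521_g3_i1 stood at 130, 164, 28.1 and 35.8 CPM over round 1, then at 53.2 in initial 2 and 230 in full 2, which was its highest level. Transcript c109326_g3_i1 stood at 121, 138, 28.6 and 19.9 CPM over round 1, then at 66.7 in initial 2 and 92.4 in full 2. Transcript c150935_g1_i1 stood at 242, 125.4, 13.6 and 20.4 CPM over round 1, then at 139 in initial 2 and 29.4 in full 2. Among these 8, full 2 was thus above initial 2 in 4 members and below it in 4.

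**Figure D2:**
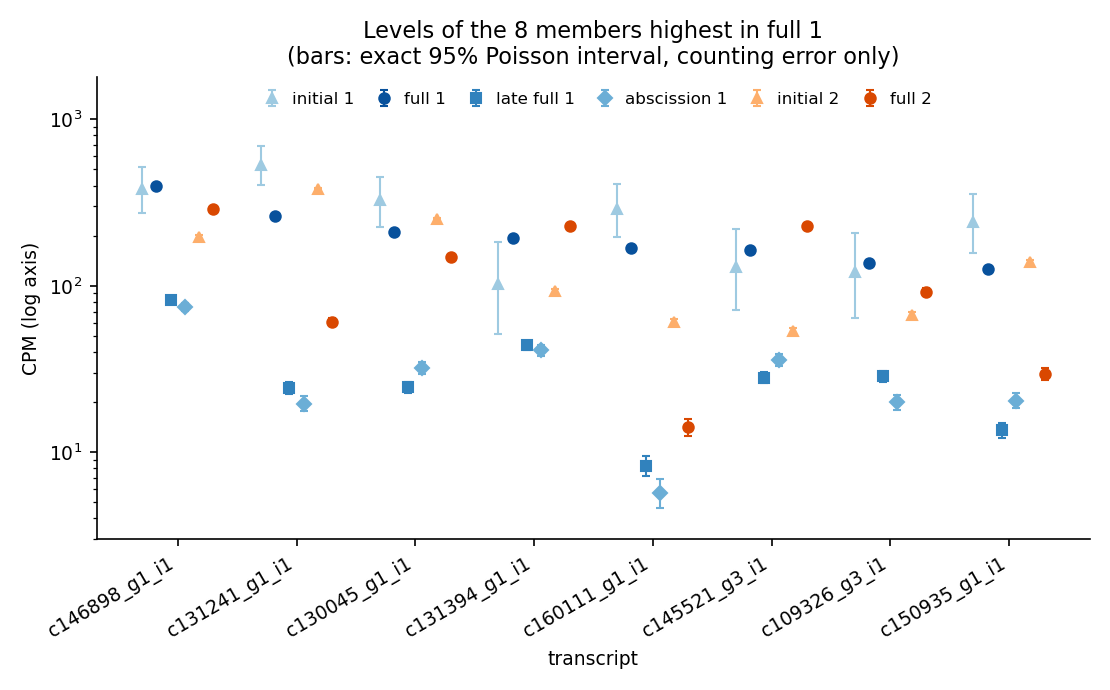
CPM of the 8 members with the highest full 1 level is plotted on a log axis for the 6 libraries, round 1 in blue and round 2 in orange, with exact 95% Poisson intervals that cover counting error only. Late full 1 and abscission 1 are the lowest of the 6 libraries in all 8 members, and full 2 lies nearest to them in c160111_g1_i1 (14.1 CPM) and c150935_g1_i1 (29.4 CPM).

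The 4 largest drops from full 1 to late full 1 left little of the transcript. Transcript c74049_g1_i1 had 1138 counts at full bloom (57.5 CPM), 31 at late full bloom (1.20) and 30 at abscission (1.68), and was 48.1-fold lower in late full 1 (95% interval 33.7 to 71.1). Transcript c146547_g1_i1 went from 28.2 CPM to 0.617 and 0.505, and c150666_g1_i1 from 40.5 CPM to 1.04 and 0.841. Transcript c36128_g1_i1 had 106 counts in full 1 and 1 in each of late full 1 and abscission 1, so its ratio of 139-fold has an interval of 24.4 to 5532. In round 2 all 4 were lower at full than at initial bloom. The levels went from 81.5 to 6.96 CPM for c74049_g1_i1, from 43.1 to 3.85 for c146547_g1_i1, from 48.7 to 8.37 for c150666_g1_i1 and from 4.397 to 0.884 for c36128_g1_i1. Each of the 4 stayed above its late full 1 level in full 2.

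Round 2 gives the comparison that shares no library with the conditions on the drop. From initial 2 to full 2, 52 of the 170 members (30.6%) were at least 4-fold lower and 5 (2.94%) at least 4-fold higher, and all 170 had at least 50 counts in the pair. Over all 25501 transcripts with 50 counts, 12.4% were lower and 5.95% higher by this measure. Among the 14290 other transcripts past the same abundance conditions with enough counts, 5.33% were lower and 3.95% higher. By any amount, 141 members (82.9%) were lower in full 2, against 64.7% of all transcripts, and 29 were higher. The median log2 ratio was -1.36 in the members (quartiles -2.15 and -0.61), and -0.41 over all transcripts, a distance of -0.95. With TMM factors 35 members (20.6%) were at least 4-fold lower and 6 (3.53%) higher, against 9.05% and 7.71% of all transcripts. By any amount 133 members (78.2%) were then lower, against 52.3% of all transcripts. The medians were -1.01 in the members and -0.06 over all transcripts, a distance again of -0.95.

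The size of the round 1 drop and the round 2 ratio were only loosely related. Across the 170 members, late full 1 over full 1 and full 2 over initial 2 had a Spearman rho of 0.14, within the narrow range that the choice leaves, and across all 14463 transcripts past the abundance conditions rho was 0.37. These transcripts share their libraries, and both values are descriptions. The transcripts that dropped and then moved at abscission had a like share of round 2 drops. Of the 154 that went lower again, 31.2% were at least 4-fold lower in full 2 than in initial 2, and of the 119 that came back, 31.9% were. The share of 30.6% was therefore not particular to the members that held their level.

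**Figure D3:**
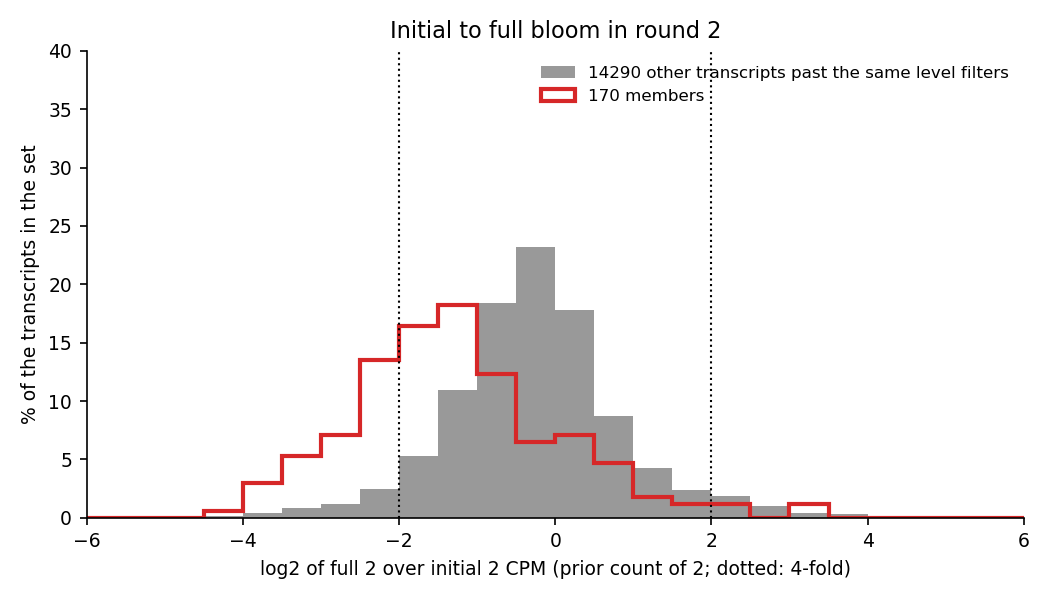
The log2 ratio of full 2 to initial 2 CPM is plotted as the percentage of transcripts per bin, in red for the 170 members and in grey for 14290 other transcripts past the same abundance conditions, with dotted lines at 4-fold. The members lie to the left, around a median of -1.36 against -0.29, and a small group of members lies to the right of 0.

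The median of initial 2 over full 1 was 1.06 in the members and 1.07 over all transcripts. In initial 2, 94 members were above and 76 (44.7%) below their full 1 level, against 42.8% of all transcripts below. Between 0.67 and 1.5 times full 1 were 83 members (48.8%), against 62.2% of all transcripts and 71.99% of the other transcripts past the abundance conditions. At least 4-fold lower in initial 2 were 5 members, 2.94% of 170 against 1.62% of all transcripts, and at least 4-fold higher were 2, or 1.18% against 3.22%. This pair shares full 1 with the choice of members, so nothing is read from these shares.

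The members highest in initial 2 relative to full 1 were c150350_g1_i3, c149985_g1_i1, c160337_g1_i3 and c161441_g7_i1. Transcript c150350_g1_i3 stood at 6.26 CPM in full 1, 1.43 in late full 1, 1.63 in abscission 1, 50.5 in initial 2 and 4.002 in full 2. Its initial 2 level was 8.06-fold above full 1 (95% interval 6.72 to 9.74). Transcript c149985_g1_i1 stood at 9.60, 1.89, 1.68, 52.9 and 10.2 CPM in the same libraries, 5.51-fold above full 1 in initial 2 (95% interval 4.75 to 6.43). For c160337_g1_i3 the ratio was 3.52 and for c161441_g7_i1 it was 3.50. All 4 had their highest deep-library level in initial 2, and initial 1 held 2 to 4 counts of each.

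The median level of full 2 was 39.9% of full 1. The full 2 level was above late full 1 and below full 1 in 150 members, below late full 1 in 11 and above full 1 in 9, and the choice leaves a gap of at least 4-fold between these levels. Against full 1, 44 members (25.9%) were at least 4-fold lower in full 2, against 6.01% of all transcripts. Against late full 1, 161 members had enough counts, of which 32 (19.9%) were at least 4-fold higher in full 2 and 0 at least 4-fold lower, against 4.76% and 6.39% of all transcripts. Both pairs share a library with the choice of members, which sets full 1 high and late full 1 low, and nothing is read from these counts and shares.

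The members with the highest full 2 relative to late full 1, beside c36128_g1_i1 with its single late count, kept a full bloom level in both rounds. Transcript c145125_g1_i2 stood at 52.5 CPM at full bloom, 4.399 at late full bloom and 3.25 at abscission of round 1, then at 14.3 in initial 2 and 46.5 in full 2. Full 2 was 10.6-fold above late full 1 (95% interval 8.68 to 13.0). Transcript c154608_g1_i2 stood at 34.9, 3.59, 3.76, 66.1 and 37.8 CPM in the same libraries. Transcript c148346_g2_i1 stood at 25.4, 3.63, 3.03, 41.4 and 35.6 CPM, and c162678_g1_i1 at 27.9, 3.05, 2.92, 42.6 and 27.4 CPM. In these 4 the full 2 level was 88.5% to 140% of full 1.

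The 4 strongest round 2 drops ended below the late full 1 level in 3 members and above it in c149412_g1_i1. Transcript c104301_g1_i1 had 488 counts in initial 2 (12.5 CPM) and 12 in full 2 (0.624), with a 95% interval of 11.3- to 39.0-fold lower. Over round 1 its deep libraries gave 10.6, 1.12 and 1.63 CPM. Transcript c132029_g3_i1 went from 20.3 to 1.35 CPM, 15.0-fold lower (95% interval 10.2 to 23.1), and stood at 1.74 CPM in late full 1. Transcript c149412_g1_i1 went from 48.7 to 3.27 CPM, 14.9-fold lower, and c140242_g1_i1 from 10.02 to 0.728 CPM, 13.8-fold lower. Their late full 1 levels were 2.39 and 1.20 CPM. The ratio of full 2 to late full 1 was 0.557 in c104301_g1_i1, 0.778 in c132029_g3_i1, 1.37 in c149412_g1_i1 (95% interval 0.948 to 1.98) and 0.608 in c140242_g1_i1. For all 4 the interval included 1, so a difference was not detectable at this depth.

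A smaller set of members took the opposite course in round 2. Transcript c140529_g1_i1 stood at 65.1 CPM in initial 1, 124 in full 1, 24.8 in late full 1, 20.3 in abscission 1, 13.4 in initial 2 and 127 in full 2. It was 9.52-fold higher at full than at initial bloom of round 2 (95% interval 8.66 to 10.5), with nearly the same level at full bloom of both rounds. Transcript c155879_g1_i1 stood at 21.2 CPM in full 1, 1.89 in late full 1, 1.91 in abscission 1, 1.99 in initial 2 and 16.5 in full 2, 8.29-fold higher (95% interval 6.45 to 10.8). The other 3 that were at least 4-fold higher in full 2 were c160378_g1_i1 (0.665 to 3.07 CPM), c145521_g3_i1 (53.2 to 230 CPM) and c133510_g1_i1 (0.895 to 3.69 CPM). Transcripts c155879_g1_i1, c133510_g1_i1, c140529_g1_i1 and c160378_g1_i1 were also the 4 members with the lowest initial 2 relative to full 1, with ratios from 0.0942 to 0.123. Both rankings use the initial 2 library, so nothing is read from this overlap. In all 5, full bloom was the highest deep library of each round. This is fixed in round 1 by the choice of members and in round 2 by the picking of these 5.

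Single members were thinly counted in initial 1, so its level is read as a sum. The members together held 0.882% of the counts of initial 1, 0.522% of full 1, 0.0817% of late full 1, 0.0815% of abscission 1, 0.492% of initial 2 and 0.284% of full 2. In initial 1 the sum rested on 948 counts, and 140 members had at least 1 count. The summed level of full 1 was 0.592 times that of initial 1 (95% interval 0.555 to 0.632), and that of full 2 was 0.577 times that of initial 2 (95% interval 0.571 to 0.582). With TMM factors these ratios were 0.849 and 0.736. The summed level was thus highest in the initial libraries of each round under both scalings. For the other transcripts past the abundance conditions the ratios were 1.01 and 0.985 by CPM, and 1.45 and 1.26 with TMM factors. The round 1 ratio shares full 1 with the choice of members, so nothing is read from its distance to the other transcripts. The 8 members highest in full 1 made up 31.8% of its sum, and without them the ratios were 0.532 and 0.474.

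Of the members with the most counts in initial 1, c138526_g1_i1 went from 326 CPM (35 counts) to 83.7, 11.9 and 9.65 over the next 3 stages of round 1. It went from 76.0 to 35.2 CPM in round 2. It was 3.89-fold lower in full 1 than in initial 1 (95% interval 2.701 to 5.43), and with TMM factors the ratio was 2.71 (95% interval 1.88 to 3.79). For c130045_g1_i1 full 1 was 1.55-fold below initial 1 (95% interval 1.08 to 2.15), and 1.08-fold below it with TMM factors (95% interval 0.7499 to 1.502), where the interval includes 1. For c146898_g1_i1, with 41 counts in initial 1, the ratio of full 1 to initial 1 was 1.04 (95% interval 0.763 to 1.45), and with TMM factors 1.49 (95% interval 1.09 to 2.07), where the interval excludes 1. For both, the scaling decides whether a difference lies beyond counting error.

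Grouped by the course in round 2, with limits chosen after the values were seen, the members differed in round 1 in a pair of libraries that the grouping did not use. Of this pair, full 1 was used by the choice of members. Full 2 was at or below 0.25 of initial 2 in 52 members, between 0.25 and 0.67 in 76, between 0.67 and 1.5 in 29 and above 1.5 in 13. In the 52, the summed level of full 1 was 0.410 times that of initial 1 (95% interval 0.371 to 0.454). In the 76 it was 0.562 (95% interval 0.504 to 0.630) and in the 29 it was 0.813 (95% interval 0.699 to 0.9496). In the 13 it was 1.30 (95% interval 1.01 to 1.71, on 61 counts in initial 1), and without c131394_g1_i1, the most abundant of them, it was 1.17 (95% interval 0.888 to 1.58). The 4 ratios kept the order of the round 2 ratios. With TMM factors they were 0.588, 0.807, 1.17 and 1.87, in the same order, with the 29 now above 1. The 14293 other transcripts past the abundance conditions, grouped by the same limits, had ratios of 0.542, 0.767, 1.05 and 1.64, also in this order, which is therefore not particular to the members. All pooled members of a set share the same libraries, and the intervals cover counting error only.

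**Figure D4:**
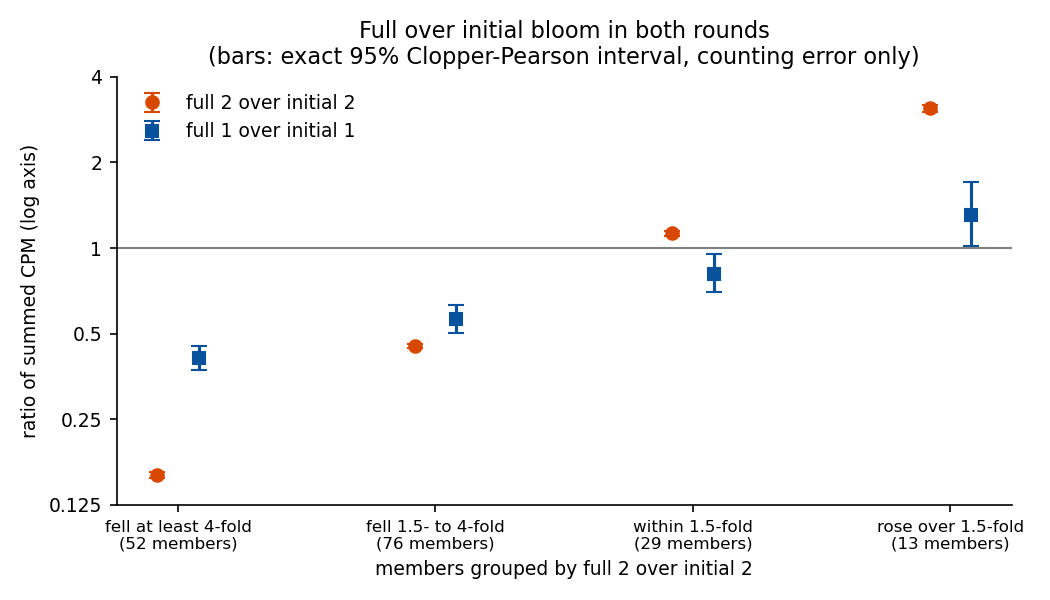
The ratio of summed CPM at full over initial bloom is plotted on a log axis for 4 sets of members grouped by their round 2 ratio, round 2 in orange and round 1 in blue, with exact 95% Clopper-Pearson intervals. The round 2 values are fixed by the grouping, and the round 1 values go from 0.410 through 0.562 and 0.813 to 1.30.

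Members rarely shared an assembly component, the first number of an ID. From the form of the IDs, this number is read here as marking transcripts assembled from connected sequence. The 170 came from 168 components. In 1 of the 2 shared components, c158491_g2_i1 stood at 54.4 CPM in full 1, 13.6 in late full 1, 24.3 in initial 2 and 36.2 in full 2, and c158491_g1_i1 at 13.0, 2.24, 4.601 and 6.50 in the same libraries. In the other, c151265_g2_i1 stood at 11.4, 1.39, 3.96 and 4.52 CPM and c151265_g1_i1 at 10.1, 1.27, 4.06 and 2.29. Over both pairs the initial 2 level was 0.347 to 0.447 of full 1. Close copies can share reads, and how such reads were divided is not given in the sources used here.

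A further 119 transcripts that are not members lay in 62 of these components. Of the 58 with at least 5 CPM in full 1, 7 (12.1%) were at least 4-fold lower in late full 1, against 3.06% of all transcripts past the abundance conditions. The median late full 1 level of the 58 was 56.2% of full 1, against 81.8%. With the members left out, as they are from the 58, the transcripts past the abundance conditions gave 1.91% and 82.2%. Full 1 and late full 1 chose the members, and mates may share reads with them, so nothing is read from these differences. The component mates of members included c145521_g2_i1, beside the member c145521_g3_i1. This mate stood at 114 CPM in full 1, 7.83 in late full 1, 4.15 in abscission 1, 72.5 in initial 2 and 179 in full 2. Of the 70 mates with 50 counts in full 1 and late full 1 together, 7 were at least 2-fold and 1 (1.43%) at least 4-fold higher in late full 1, against 8.58% and 3.14% of all transcripts, and these shares are read as background. The one at 4-fold, c160814_g2_i2, went from 0.505 to 2.35 CPM. The largest in level was c158492_g4_i1, which went from 208 to 549 CPM. These mates were named after their values were seen.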

How the data were processed

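Petal RNA of 6 pooled libraries was measured. The authors deposited expected counts for 96596 transcripts assembled de novo, per the series title, with no scaling between libraries. The submitters' processing notes name CASAVA 1.7. No source used here names the assembler, aligner or counter. Values were whole except for 36 to 855 per column and were rounded. Rounding left the 170 members as they were. All columns matched a sample, leaving 0 unmatched.

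CPM used total counts, as in the rule for members. TMM factors came from edgeR 4.0.16 over 30524 transcripts with at least 1 CPM in any library, and size factors from DESeq2 1.42.0, in R 4.3.3. A transcript counted as differing at a ratio of 4-fold or more with at least 50 counts in the pair. Log2 ratios used a prior count of 2. Intervals are exact 95% Clopper-Pearson intervals on pairs of counts or Poisson intervals. They hold for counting error alone, because each group is 1 library. PCR copies of 1 molecule can be read repeatedly, and the intervals leave this out. With 1 library per group no test was made.

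Transcripts were named by a rule on extremes: the 8 highest in full 1, the 4 most extreme for each ratio, the 2 on each side of each limit, members of shared components, and the 4 with most counts in initial 1. For ranking, a count under 3 was raised to 3. The members and the rules were chosen with earlier results of these data known. Lists of pathways could not be applied to IDs without names. Calls were checked on simulated Poisson counts without spread between samples. The member rule was checked on transcripts set to values that meet it. Both checks cover the code alone. Other steps ran in Python 3.11.15 (SciPy 1.17.1, NumPy 2.4.6, pandas 2.3.3); figures used matplotlib 3.10.9.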

Additional observations from a re-analysis of the deposited data

Results flagged for a closer look

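Transcript c74049_g1_i1 moved in opposite directions from initial to full bloom in the 2 rounds. Full 1 was 6.18 times initial 1 (95% interval 1.11 to 244), on 1 count in initial 1, while full 2 was 0.0855 times initial 2 (95% interval 0.0714 to 0.102). The difference between the rounds was not tested, and the round 1 value rests on a single count.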

How the results depend on the processing

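No paired analysis was possible because each group is 1 library. Of 91 recomputed values, 61 stayed within 1.5-fold of the value reported, or within its counting interval for a ratio of sums, and 30 did not. A change of direction was defined for the medians and the ratios of sums alone, and none of these changed. With no minimum count, 52 of the 170 members (30.6%) were at least 4-fold lower in full 2 than in initial 2, against 32.0% of all transcripts. Higher in full 2 than in late full 1 were then 34 of 170, against 26.9% of all. Both shares of all include transcripts with as little as 1 count. Members at least 4-fold lower in full 2 than in initial 2 numbered 52 of 170, and 32 of 170 with DESeq2 size factors (12.4% and 8.56% of all transcripts). They numbered 34 of the 115 members chosen on TMM-scaled CPM, and 31 of the 104 members with full 1 at 10 CPM or more. For these 2 smaller sets the share of all transcripts was again 12.4%, and their counts are to be read against the set size. With thresholds of 2-fold and 8-fold, the counts were 109 and 16 for that result (31.0% and 5.21% of all transcripts), and 9 and 2 for members higher in full 2 than in initial 2 (12.8% and 2.59% of all). They were 106 and 9 for members higher in full 2 than in late full 1 (14.0% and 2.36% of all), and 14 and 1 for members higher in initial 2 than in full 1 (12.3% and 1.12% of all). Lower in initial 2 than in full 1 were 30 at 2-fold (6.94% of all). A minimum of 200 counts gave 3 members higher in full 2 than in initial 2 (4.94% of all) and 18 higher than in late full 1 (2.76% of all). With full 1 at 10 CPM or more, 3 of 104 members were higher in full 2 than in initial 2 (5.95% of all). Of the same 104, 3 were lower (1.62% of all) and 0 higher (3.22% of all) in initial 2 than in full 1. That last count was 1 of 115 with the TMM rule and 1 of 106 with late full 1 at most 0.2 times full 1. At 0.33 it was 8 of 312, each against the same 3.22% of all. The ratio of sums from initial 2 to full 2 was 0.736 with TMM factors, 0.772 with DESeq2 and 0.474 without the 8 members highest in full 1, a set chosen after the data were seen. From initial 1 to full 1 these were 0.849, 0.814 and 0.532. The number of members was 106 at 0.2, 312 at 0.33, 104 at 10 CPM and 270 with abscission 1 between 0.5 and 2 times late full 1. Depth limits single members in initial 1.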
